A study of Drosophila melanogaster with 2 samples.

Results

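The 8 core circadian clock genes of *Drosophila*, *per*, *tim*, *Clk*, *cyc*, *vri*, *Pdp1*, *cry* and *cwo*, were followed by gene symbol among the 13942 genes counted in single cells of the ovary. The ovaries came from females of genotype *w1118(x);;*, kept with males, and 1 library at 1 week and 1 at 6 weeks after eclosion was analysed. The study mentions replicates and more than one kit version, but the deposited barcodes do not tell replicates apart and the labels name the same kit for both ages. No transgene or treatment separated the ages, and both libraries held whole ovaries without enrichment of anterior structures. With 1 library per age no test was possible. Intervals below are 95% intervals that cover counting error only, and age cannot be told apart from any other difference between the libraries. The hour of dissection and the light cycle are not given in the sources used here, which matters for genes whose RNA can follow the time of day.

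In clock neurons, CLK and CYC form a dimer that binds E-boxes and activates *per*, *tim*, *vri*, *Pdp1* and *cwo*. PER and TIM accumulate, enter the nucleus and repress this dimer. VRI represses *Clk* and PDP1 activates it, which forms a second loop, and CWO represses the targets of the dimer. CRY is a blue-light photoreceptor that leads to the loss of TIM. In the ovary, PER and TIM are known in follicle cells, where their abundance does not cycle as it does in clock neurons.

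The deposited matrices held 33317 barcodes at 1 week and 20224 at 6 weeks, with 147628511 and 162985928 unique molecular identifiers (UMIs). Of these, 9131 and 9878 cells passed the filter, with a median of 10639 and 12585.5 UMIs per cell. The median mitochondrial share of the kept cells was 6.18% at 1 week and 4.42% at 6 weeks, and 178 barcodes occurred in both libraries, 26 of them among the kept cells. Levels are given as CPM, the UMIs of a gene scaled to a total of 1000000 UMIs over the cells of a group. CPM are thus shares of all UMIs of a group and not amounts per cell. A scale without yolk and eggshell genes was applied to all cells only, not to the classes. Clustering without the clock genes gave 27 clusters, of which 19 were given a class name and 8 stayed unnamed. The 8 Early-Mid FCs-like clusters were named by a weaker rule, from markers that were detected but need not be raised. Of the follicle classes, FSCs + pFCs-like cells (named after follicle stem and precursor cells) numbered 1394 at 1 week and 1759 at 6 weeks. This class also held a cluster led by *upd1*, a gene of polar cells. It further held a cluster led by *CadN*, without *zfh1*, *cas* or *Fas3* among its raised markers. Early-Mid FCs-like cells (follicle cells of early and middle stages) numbered 5259 and 5452, and Late FCs-like cells 127 and 69. The others were escort cell-like (389 and 399), muscle-like (353 and 497), gut or tubule-like (166 and 109), germ cell-like (106 and 76) and immune-like cells (54 and 18). Names were rebuilt from markers, and differences from other descriptions of these cells may come from this.

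The clock genes lie on 4 chromosomes or arms in the BDGP6.54 annotation, each as a protein-coding gene. *per* is at X:2685580-2692780 and *tim* at 2L:3493986-3508119. *vri* is at 2L:5288944-5311223, *cyc* at 3L:19813770-19815938, *cwo* at 3R:10388258-10400752 and *cry* at 3R:19212154-19215442. *Clk* (3L:7763233-7775603) and *Pdp1* (3L:7811458-7867369) lie on the same strand, 35854 bases apart. *Pdp1* has 13 annotated transcripts, which the UMIs per gene do not separate. *Clk* overlaps *CG32371* on its own strand, and *per* and *cry* overlap *dyw* and *vib* on the opposite strand, so UMIs in the overlaps are less certain. Levels of different clock genes are not ranked against each other here.

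Over all kept cells, *per* stood out between the ages and the activator genes differed least. *per*, which encodes the repressor PERIOD, had 2122 UMIs at 1 week and 3996 at 6 weeks, or 17.9 and 27.0 CPM. Its log2 ratio of 6 weeks over 1 week was 0.60 (interval 0.52 to 0.67). *vri*, which encodes a bZIP repressor of *Clk*, had 64.7 and 86.1 CPM, with a log2 ratio of 0.41 (0.37 to 0.45). *tim*, the partner of *per*, had 81.9 and 93.7 CPM (log2 ratio 0.19, 0.16 to 0.23). All these targets of the CLK and CYC dimer were at a higher level in the library of 6 weeks.

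*cwo*, which encodes a repressor of the basic helix-loop-helix Orange family, had 302 CPM at 1 week and 345 at 6 weeks (log2 ratio 0.19, 0.17 to 0.21). *Pdp1*, which encodes a bZIP activator, had 727 and 792 CPM (0.12, 0.11 to 0.14). The genes of the activating dimer lay near 0 on the log2 scale. *Clk* had 58.7 and 59.7 CPM (0.02, -0.02 to 0.07), and *cyc* had 49.8 CPM in each library (0.00, -0.05 to 0.05). *cry*, the photoreceptor gene, had 13.6 and 12.5 CPM (-0.12, -0.22 to -0.02) and was the only member with an interval below 0.

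Of the 8 clock genes, 1 (*per*) was past a log2 ratio of 0.5 upward and 0 downward. Of 10056 genes with at least 30 UMIs, 6.52% were as far upward and 11.5% as far downward. The median log2 ratio of the 8 was 0.16, against -0.01 for all genes tested. In these summed values more cells of a type and more RNA per cell cannot be told apart. With the cluster shares of both libraries set to their mean, the log2 ratio of *per* was 0.499, so that it no longer reached 0.5.

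The share of cells with at least 1 UMI followed the levels for most members. It was 17.8% at 1 week and 27.0% at 6 weeks for *per*, and 45.3% and 56.0% for *vri*. *tim* was seen in 47.4% and 53.2% of the cells, *Clk* in 41.5% and 44.9%, and *cyc* in 40.5% and 42.5%. These shares depend on depth, which was higher at 6 weeks. With each cell thinned to 2000 UMIs, the difference was 2.07 percentage points for *per* and 3.38 for *vri*. For *cry* the share was 13.5% and 14.3%, and the difference turned to -0.28 percentage points after thinning.

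**Figure D1:**
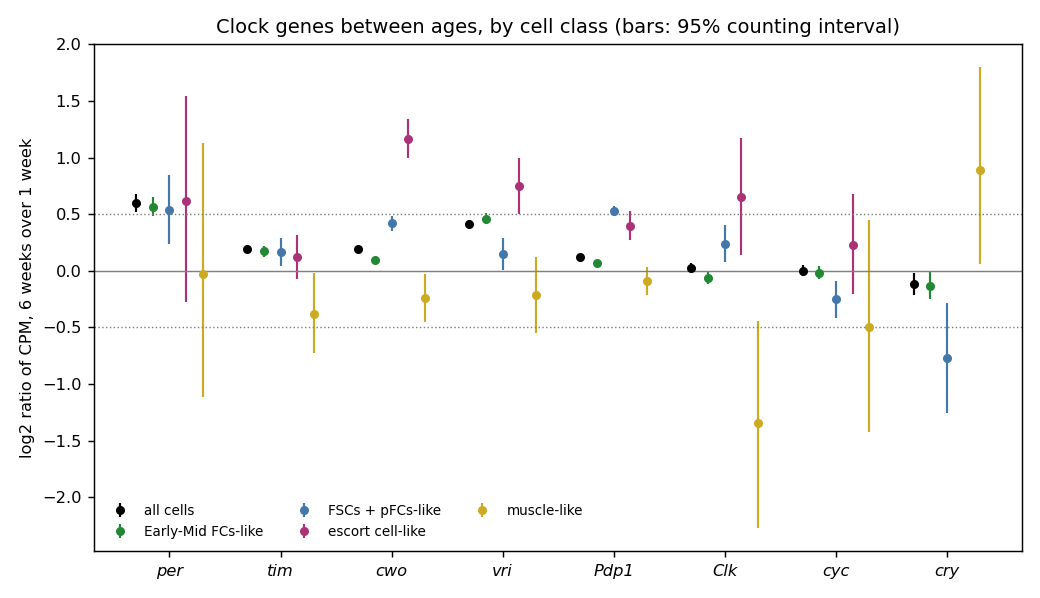
Log2 ratio of CPM (6 weeks over 1 week, vertical axis) of each clock gene in all kept cells and in 4 cell classes, with 95% counting intervals as bars and dotted lines at a log2 ratio of 0.5 in either direction. In all cells *per* was at 0.60 and *cyc* at 0.00, and escort cell-like cells had *cwo* at 1.17. Ratios with under 30 UMIs over both libraries are left out.

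Across the cell classes, the repressor genes *per* and *tim* had different places of highest level. *per* was highest in Early-Mid FCs-like cells, at 20.7 CPM (19.7 to 21.7) at 1 week and 30.6 (29.6 to 31.7) at 6 weeks. FSCs + pFCs-like cells had 19.1 (16.0 to 22.6) and 27.7 (24.5 to 31.2) CPM, and these intervals overlap those of the Early-Mid FCs-like cells. Gut or tubule-like, escort cell-like and muscle-like cells followed with 13.8, 12.1 and 10.6 CPM at 1 week and with intervals that overlap. Late FCs-like cells had 10 UMIs of *per* at 1 week and 3 at 6 weeks, or 1.90 (0.91 to 3.49) and 0.67 (0.14 to 1.96) CPM, although their cells were the deepest, with a median of 45441 and 70891 UMIs. *per* was thus low in the follicle cells that carried vitelline membrane genes and in germ cell-like cells, which had 1.80 (0.22 to 6.49) and 5.17 (2.36 to 9.81) CPM.

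Within the follicle lineage *per* varied by cluster. The cluster led by *CadN*, which encodes N-cadherin and is in the FSCs + pFCs-like class, had 44.0 CPM at 1 week and 57.4 at 6 weeks. The Early-Mid FCs-like cluster with the mitotic genes *polo*, *tum* and *aurB* among its leading genes had 38.3 and 50.9 CPM. The Early-Mid FCs-like cluster led by *Asph* and *Obp99a* had 32.2 and 47.4 CPM. Levels were much lower in the Early-Mid FCs-like cluster led by *mrva* and *Dip-B*, which also has *Ilp6* among its leading genes. There *per* was at 4.4 CPM at 1 week and 6.7 at 6 weeks.

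*tim* was highest in escort cell-like cells, the somatic cells that line the germarium around early germ cells. It was at 267 CPM (242 to 295) at 1 week and 291 (265 to 319) at 6 weeks. Gut or tubule-like cells had 158 and 165 CPM and FSCs + pFCs-like cells 119 and 133. In Early-Mid FCs-like cells, where *per* was highest, the values were 71.4 (69.6 to 73.2) and 80.5 (78.8 to 82.2) CPM of *tim*. Late FCs-like cells kept *tim* at 54.9 (48.7 to 61.6) and 63.7 (56.6 to 71.6) CPM, in contrast to *per*. Leaving out immune-like cells, which were few, neighbours in this order had separate intervals, except FSCs + pFCs-like and muscle-like cells at 1 week, and muscle-like cells at 6 weeks, whose interval overlapped those of both neighbours.

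Both escort cell-like clusters were high in *tim*. The cluster led by *CG2233* and *wrapper* had 268 CPM at 1 week and 260 at 6 weeks. The cluster led by *Wnt6*, with *Lmx1a* and *hh* among its leading genes, had 265 and 404. The other cluster of this height was unnamed and led by *Ilp8*, with *Nox* among its leading genes, at 291 and 320 CPM. It held 110 cells at 1 week and 394 at 6 weeks.

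*vri* varied with *tim* over the clusters, but below escort cell-like cells the order of the named classes differed between them. Escort cell-like cells had 142 CPM of *vri* (124 to 163) at 1 week and 239 (215 to 264) at 6 weeks, the highest of the named classes. Muscle-like cells had 112 (93.7 to 134) and 96.7 (83.6 to 111) CPM, and FSCs + pFCs-like cells had 92.4 and 102. Early-Mid FCs-like cells had 55.9 and 77.0 CPM and Late FCs-like cells 46.0 and 36.5. The *Wnt6* cluster had the highest value at 1 week among the 23 clusters with at least 50 cells in each library, 273 CPM, and reached 452 at 6 weeks. Over the 23 clusters the Pearson correlation of *tim* and *vri* was 0.84 at 1 week and 0.85 at 6 weeks, on log2(CPM + 5), and 0.72 and 0.76 without the germ cell-like cluster. These correlations are descriptions over clusters that share a library.

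*cwo* and *Pdp1* were seen in most cells of the follicle lineage. FSCs + pFCs-like cells had 399 CPM of *cwo* (384 to 414) at 1 week and 533 (519 to 548) at 6 weeks. Escort cell-like cells had 275 (249 to 303) and 617 (579 to 656) CPM and moved from the fourth place among the named classes to the first. As a share of UMIs, *cwo* was lowest in Late FCs-like cells, with 140 and 154 CPM. These cells were the deepest, and *cwo* was seen in 97.6% and 100% of them. The highest cluster was the unnamed one led by *Ilp8*, at 867 and 820 CPM. *Pdp1* was at 784 CPM (778 to 790) and 823 (817 to 828) in Early-Mid FCs-like cells, at 936 (902 to 970) and 808 (768 to 850) in gut or tubule-like cells, and at 293 and 298 in Late FCs-like cells. Muscle-like cells had 758 (708 to 810) and 711 (675 to 749) CPM of *Pdp1*, which is also known as an activator of muscle genes in the fly embryo.

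The clusters with the most *Pdp1* were also high in *Clk* and in their mitochondrial share. The *CadN* cluster had 1623 and 2180 CPM of *Pdp1* and 176 and 168 of *Clk*, at a mean mitochondrial share of 13.5% and 13.4%. The Early-Mid FCs-like cluster led by *dpr9* had 1605 and 1414 CPM of *Pdp1* and 130 and 129 of *Clk*, at 12.9% and 12.2%. In the FSCs + pFCs-like cluster led by *upd1*, which encodes a JAK/STAT ligand made by polar cells, the values were 624 and 810 CPM of *Pdp1* and 32.8 and 38.4 of *Clk*, at 5.93% and 4.37%. At 1 week other clusters of high mitochondrial share were lower in both genes. The escort cell-like *Wnt6* cluster had 832 CPM of *Pdp1* and 46.6 of *Clk* at 14.4%. At 6 weeks it had 1347 CPM of *Pdp1*, near the *dpr9* cluster, and 56.5 of *Clk*, at 7.43%. The unnamed cluster led by *CG3168* then had 1404 CPM of *Pdp1* and 28.1 of *Clk*, at 9.14%. With mitochondrial UMIs limited to 10% of a cell, the highest named class was Early-Mid FCs-like for *Clk* and gut or tubule-like for *Pdp1*, in place of FSCs + pFCs-like. *Clk* was highest at 1 week in the *Ilp8* cluster, at 188 and 145 CPM and a mitochondrial share of 8.93% and 6.61%.

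*Clk* and *cyc* encode the partners of one dimer, but they differed in place. *Clk* was at 69.9 CPM (63.9 to 76.4) and 82.5 (76.9 to 88.4) in FSCs + pFCs-like cells, and at 63.0 (61.3 to 64.7) and 60.2 (58.8 to 61.7) in Early-Mid FCs-like cells. In germ cell-like cells it had 1 UMI at 1 week and 4 at 6 weeks, or 0.90 (0.02 to 5.01) and 2.30 (0.63 to 5.88) CPM. *cyc* was at 60.2 (46.7 to 76.4) and 81.5 (68.7 to 96.1) CPM in the same germ cell-like cells, with 67 and 142 UMIs. Germ cell-like cells were thus the lowest named class in *Clk*, and in *cyc* only FSCs + pFCs-like cells (78.0 and 65.4 CPM) were higher at 1 week. At 6 weeks the interval of germ cell-like cells overlapped that of FSCs + pFCs-like cells (60.4 to 70.7), and 32 of the 142 UMIs lay in 1 cell, without which *cyc* was at 69.2 CPM. After thinning to 2000 UMIs, *cyc* was seen in 7.94% of the germ cell-like cells at 6 weeks, against 12.5% of the FSCs + pFCs-like and 12.3% of the escort cell-like cells.

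In muscle-like cells the order was another one. *cyc* was lowest there, at 16.8 (10.1 to 26.3) and 11.9 (7.63 to 17.7) CPM. Among the follicle clusters, *cyc* was highest in the *upd1* cluster, at 90.7 and 87.2 CPM, and in the FSCs + pFCs-like cluster led by *CG13403*, with *zfh1* among its leading genes, at 83.1 and 89.9. In the *dpr9* cluster *cyc* was at 18.9 and 24.5 CPM, where *Clk* was among the highest. The Pearson correlation of *Clk* and *cyc* over the 23 clusters was 0.01 at 1 week and -0.01 at 6 weeks, and 0.11 and 0.18 without germ cell-like cells.

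**Figure D2:**
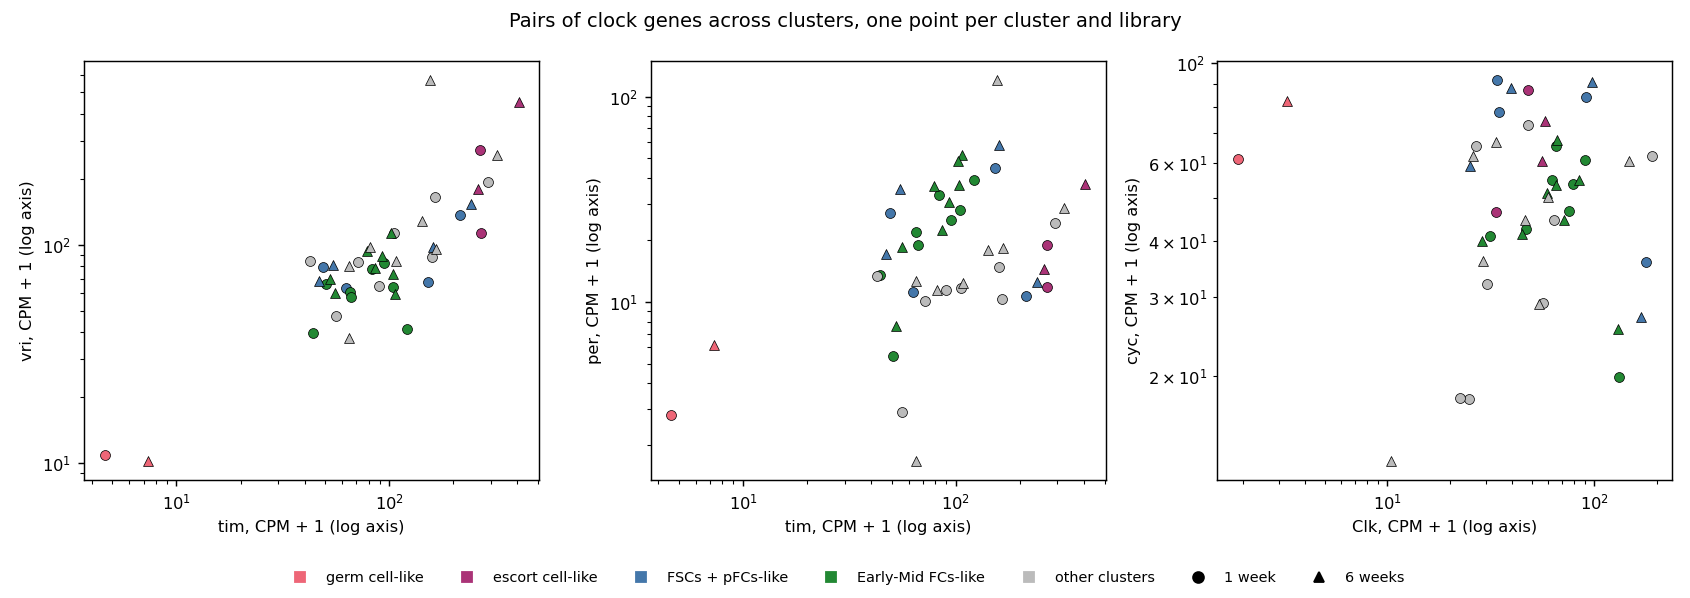
Levels of *tim* against *vri*, *tim* against *per*, and *Clk* against *cyc* (CPM + 1, log axes), with 1 point per cluster and library for the 23 clusters with at least 50 cells in each library. Circles are 1 week and triangles 6 weeks. *tim* and *vri* lie along a line (Pearson correlation 0.84 and 0.85), and the germ cell-like points lie low in *Clk* (0.90 and 2.30 CPM) but not in *cyc* (60.2 and 81.5 CPM).

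The germ cell-like cells were lowest or close to it in most clock genes, with few UMIs of 5 of them. They were chosen by 9 germ cell markers, among them *vas*, *nos*, *orb* and *osk*. *tim* had 4 UMIs at 1 week and 11 at 6 weeks, or 3.59 (0.98 to 9.20) and 6.31 (3.15 to 11.3) CPM. *per* had 2 and 9 UMIs, *cry* 1 and 3, and *vri* 11 and 16, which gave 9.88 and 9.18 CPM. The germ cell-like cells had a median of 6886.5 and 7574 UMIs per cell. Over their summed 1113005 and 1742053 UMIs, a count of 0 would allow up to 2.70 and 1.72 CPM. *Pdp1*, at 155 and 327 CPM, was under every somatic class at 1 week and above Late FCs-like cells at 6 weeks. *cwo*, at 158 and 213 CPM, was above Late FCs-like cells in both libraries.

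Shares of cells are read against germ cell-like cells, the class with the lowest level of *tim* and *Clk*. *tim* was seen in 2.83% and 6.58% of the germ cell-like cells and *Clk* in 0.94% and 5.26%. In escort cell-like cells, which were shallower (median 3243 and 3032 UMIs), *tim* was seen in 51.4% and 56.4%. In muscle-like cells, at a median of 2321 and 2515 UMIs, *Clk* was seen in 4.82% and 3.22%. With cells thinned to 2000 UMIs these were 4.10% and 2.24%, against 0 of 91 germ cell-like cells at 1 week, which allows a share of up to 3.30%, and 1.59% at 6 weeks. The 1.59% rests on 63 thinned cells, too few to tell it apart from the share in muscle-like cells. By CPM *Clk* at 6 weeks was at 9.43 (5.67 to 14.7) in muscle-like cells. Germ cell-like cells had 2.30 (0.63 to 5.88), an interval that overlaps slightly.

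Among the named classes *cry* was highest in gut or tubule-like cells, but some follicle clusters came close. Gut or tubule-like cells had 31.3 CPM (25.5 to 38.1) at 1 week and 28.0 (20.9 to 36.8) at 6 weeks, and muscle-like cells had 14.2 (8.09 to 23.0) and 26.3 (19.7 to 34.4). Early-Mid FCs-like cells had 13.1 (12.4 to 13.9) and 11.99 (11.3 to 12.7). Late FCs-like cells had 2.85 and 2.68 CPM. The escort cell-like clusters differed from each other in *cry*. The *Wnt6* cluster had 11 UMIs in each library, or 39.5 and 31.1 CPM, and the *CG2233* cluster had 1 UMI at 1 week and 0 at 6 weeks, which allows up to 2.37 CPM. In the follicle lineage the *upd1* cluster had 27.3 (20.9 to 35.2) and 20.6 (14.5 to 28.6) CPM. The Early-Mid FCs-like cluster led by *CG33939* and *dpp* had 27.1 (23.8 to 30.7) and 22.6 (19.7 to 25.8), and the *Asph* cluster 25.8 and 22.2. The intervals of the *upd1* and *CG33939* clusters overlap those of gut or tubule-like cells in both libraries. The unnamed *Ilp8* cluster had 28.1 (16.4 to 44.9) and 32.4 (26.4 to 39.3) CPM, the highest of the 23 clusters at 6 weeks.

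**Figure D3:**
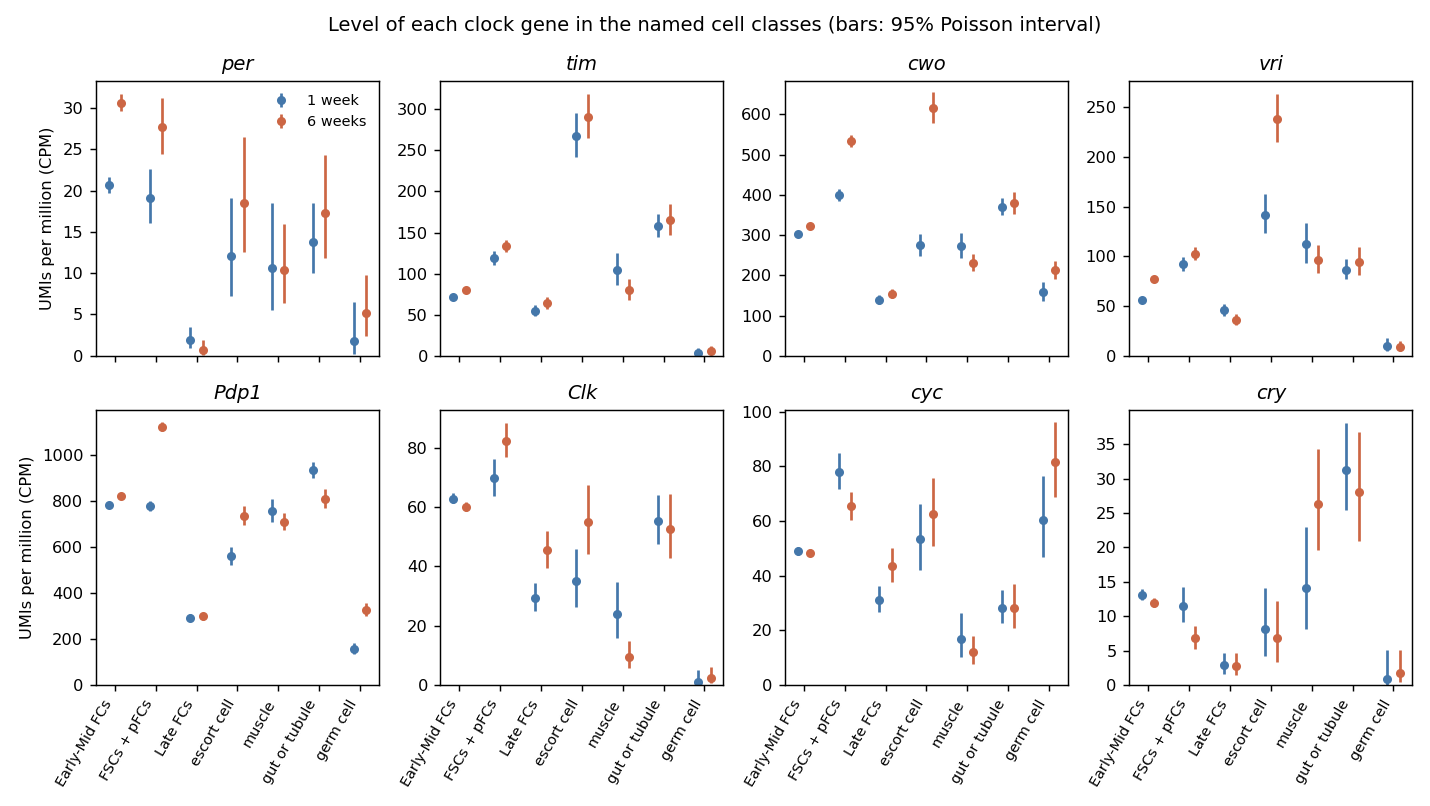
Level of each clock gene (CPM, vertical axes from 0) in 7 named cell classes at 1 week (blue) and 6 weeks (orange), with 95% Poisson intervals. *tim* and *vri* were highest in escort cell-like cells (267 and 142 CPM at 1 week), *per* in Early-Mid FCs-like cells (20.7 CPM) and *cry* in gut or tubule-like cells (31.3 CPM), while germ cell-like cells held *cyc* at 60.2 CPM.

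The pattern over clusters was alike in both libraries. Over the 23 clusters the Pearson correlation of the 1-week with the 6-week levels was 0.96 for *cry*, 0.95 for *Clk*, 0.93 for *tim* and 0.89 for *cyc*. It was 0.88 for *Pdp1*, 0.83 for *vri*, 0.81 for *per* and 0.74 for *cwo*. The 6-week cells were placed in clusters by their nearest 1-week cells, so the clusters are not independent between the ages.

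**Figure D4:**
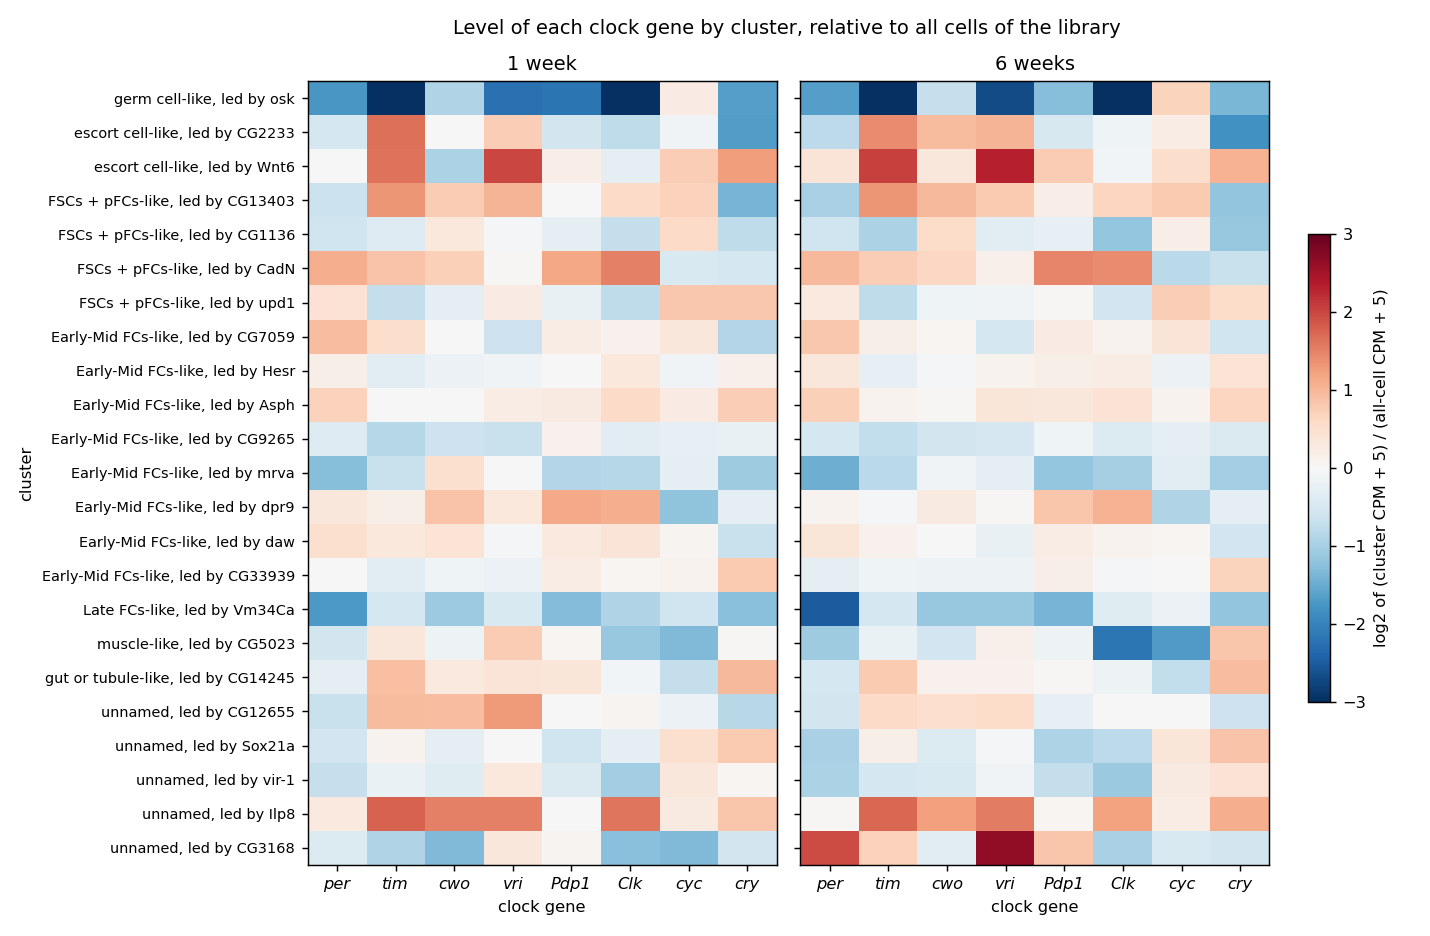
Level of each clock gene in the 23 clusters with at least 50 cells in each library, as the log2 of cluster CPM over the CPM of all cells of that library after adding 5 to both, at 1 week (left) and 6 weeks (right). Colours end at 3 in either direction. The germ cell-like cluster was low in *tim* and *Clk*, and the cluster led by *CG3168* was high in *per* (119 CPM) and *vri* (569 CPM) at 6 weeks only.

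Between the ages, within the Early-Mid FCs-like cells, *per* and *vri* differed most. *per* was at 20.7 and 30.6 CPM, a log2 ratio of 0.57 (0.48 to 0.65), and was seen in 24.9% and 39.4% of the cells, or in 4.91% and 6.41% after thinning to 2000 UMIs. *vri* was at 55.9 and 77.0 CPM, a log2 ratio of 0.46 (0.41 to 0.51). *tim* had a log2 ratio of 0.17 and *cwo* of 0.09. *Clk* (-0.06), *cyc* (-0.02) and *cry* (-0.13) were slightly lower or level. Only *per* was past a log2 ratio of 0.5, where 4.99% of 8884 genes were as far upward and 6.26% as far downward.

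The 8 Early-Mid FCs-like clusters did not differ in direction for *per* and *vri*. The log2 ratio of *per* ran from 0.26 to 0.77, with the interval above 0 in 6 of the 8. That of *vri* ran from 0.08 to 0.64, also with 6 of 8 intervals above 0. Over all genes in these clusters 15.4% of the intervals were above 0 and 16.4% below. The highest *per* ratio (0.77, 0.56 to 0.97) was in the cluster led by *Hesr*, which encodes a HES-related factor, where *per* was at 20.9 and 35.6 CPM and *vri* at 59.9 and 93.1. *cwo* and *Pdp1* had mixed directions over these clusters. *cwo* had 5 intervals above 0 and 3 below, the lowest in the *mrva* cluster (426 and 322 CPM, log2 ratio -0.41) and the *dpr9* cluster (548 and 416 CPM, -0.40).

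In the FSCs + pFCs-like cells 3 of the 8 clock genes were past a log2 ratio of 0.5, *per* and *Pdp1* upward and *cry* downward. Of 7367 genes, 4.74% were as far upward and 6.45% as far downward. *per* had a log2 ratio of 0.53 (0.23 to 0.84), *Pdp1* of 0.53 (0.48 to 0.58) and *cry* of -0.77 (-1.26 to -0.28). The *CadN* cluster was 192 of 1394 cells at 1 week and 530 of 1759 at 6 weeks, and it was the highest of the 4 clusters in *per*, *Pdp1* and *Clk*. Within the 4 clusters the log2 ratio of *Pdp1* was 0.17 to 0.43, below that of the class. The ratio of *per* was 0.24 to 0.65 within them, and each interval held 0.

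The *per* ratio of the FSCs + pFCs-like cells was 0.22 at the lower cluster resolution and 0.19 in cells where mitochondrial UMIs made up to 10%, both with an interval that held 0. In the latter cells *tim* was at 0.63, against 0.16 in all cells of the class, and *cwo* at 0.60, against 0.42. *cry* rested on 82 UMIs at 1 week and 66 at 6 weeks. Of these, 60 and 36 lay in the *upd1* cluster, which numbered 183 and 130 cells. Within the 4 clusters the log2 ratio of *cry* was -1.04 to 0.35, and each interval held 0. *cry* was seen in 4.59% and 3.18% of the cells, and in 1.07% and 1.05% after thinning. So few thinned cells held *cry* that they cannot show whether its level differed.

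The highest ratios of *cwo* and *vri* among the named classes were in escort cell-like cells, with an interval of *vri* that overlaps that of the Early-Mid FCs-like cells. *cwo* was at 275 and 617 CPM, a log2 ratio of 1.17 (1.00 to 1.34). *vri* was at 142 and 239 CPM (0.75, 0.50 to 1.00), and *Clk* at 35.0 and 55.0 CPM (0.65, 0.14 to 1.17). *per* was at 12.1 and 18.5 CPM, with 18 and 30 UMIs and an interval that held 0 (0.61, -0.28 to 1.54). These 4 of 7 clock genes with at least 30 UMIs were past 0.5, where 10.1% of 6047 genes were as far upward and 7.23% as far downward. The median log2 ratio of the 7 was 0.61, against 0.04 for all genes tested in the class.

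Both escort cell-like clusters showed the difference in *cwo* and *vri*. *cwo* was at 303 CPM at 1 week and 666 at 6 weeks in the *CG2233* cluster (log2 ratio 1.14, 0.96 to 1.32), and at 154 and 440 in the *Wnt6* cluster (1.51, 1.02 to 2.04). *vri* had ratios of 0.68 (0.36 to 0.99) and 0.73 (0.33 to 1.14) in them. *tim*, which was highest in these cells, was level in the *CG2233* cluster (-0.05, -0.27 to 0.18) and higher at 6 weeks in the *Wnt6* cluster (0.60, 0.19 to 1.03). The *Wnt6* cells were shallow, with a median of 1771.5 and 1799 UMIs, and their mean mitochondrial share was 14.4% at 1 week and 7.43% at 6 weeks. Over the alternatives the class ratio ran from 1.07 to 1.24 for *cwo* and from 0.62 to 0.85 for *vri*. With mitochondrial UMIs limited to 10% of a cell the class ratio of *Pdp1* was 0.66, against 0.40 in all cells of the class.

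Muscle-like cells had other directions. *Clk* was at 23.9 CPM at 1 week and 9.43 at 6 weeks, on 27 and 19 UMIs, a log2 ratio of -1.34 (-2.27 to -0.44). *cry* was at 14.2 and 26.3 CPM, on 16 and 53 UMIs (0.89, 0.06 to 1.80), and it was seen in 3.97% and 9.26% of the cells, or 3.28% and 4.81% after thinning. *tim* (-0.38) and *cwo* (-0.24) were lower at 6 weeks with intervals below 0. Of the 8 clock genes in these cells 1 was past 0.5 upward and 1 downward, where 14.7% of 5502 genes were as far upward and 7.96% as far downward.

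The remaining classes held few cells. In Late FCs-like cells *Clk* was at 29.3 and 45.4 CPM (log2 ratio 0.63, 0.32 to 0.95) and *cyc* at 31.2 and 43.6 (0.49, 0.18 to 0.79), while *vri* was at 46.0 and 36.5 (-0.33, -0.63 to -0.04). Only *Clk* of 6 genes tested was past 0.5, where 16.9% of 5771 genes were as far upward and 11.3% as far downward, and the median of all genes tested was 0.12. In germ cell-like cells *Pdp1* was at 155 and 327 CPM (1.07, 0.82 to 1.33), on 173 and 569 UMIs, but it was seen in 50.9% and 46.1% of the cells, and 208 of the UMIs at 6 weeks lay in 1 cell. Without the highest cell of each library the log2 ratio was 0.67 (0.39 to 0.95). It was 1 of 3 clock genes tested there, where 13.4% of 5966 genes were as far upward and 20.1% as far downward. In gut or tubule-like cells none of the 8 was past 0.5 (0 genes, against 7.31% of 6035 genes upward and 11.9% downward), and *Pdp1* was at -0.21 (-0.30 to -0.12). Immune-like cells held 18 cells at 6 weeks and are given no ratio.

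Over the 7 classes with at least 50 cells in each library, 48 pairs of a clock gene and a class had at least 30 UMIs. Of these, 12 were past a log2 ratio of 0.5, 10 upward and 2 downward, where 9.72% of 45572 pairs of any gene and a class were as far upward and 9.82% as far downward. Over the 23 clusters *vri* had 12 intervals above 0 and 2 below, *cwo* 12 and 5, and *Pdp1* 14 and 7. *per* had 8 above 0 and 0 below, *tim* 8 and 4. *cry* had 21 of 23 intervals that held 0, *cyc* 20 and *Clk* 17, and *cry* had the fewest UMIs of all members. Over all pairs of a gene and 1 of these clusters, 14.7% of the intervals were above 0 and 13.5% below, and the share also depends on the UMIs of a gene.

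The most extreme ratios of *per* and *vri* were in 1 unnamed cluster of 65 and 77 cells, led by *CG3168*. *per* was at 12.3 CPM on 8 UMIs at 1 week and at 119 CPM on 17 UMIs at 6 weeks, and *vri* at 83.0 and 569 CPM on 54 and 81 UMIs. The cells at 6 weeks were shallow (median 1553 UMIs), the median log2 ratio of all genes tested in the cluster was itself far above 0, at 1.48, and the chorion genes *Cp15*, *Cp19* and *Cp36* were raised in it. Without this cluster the log2 ratio over all cells was 0.59 for *per* and 0.41 for *vri*. In the *Ilp8* cluster *vri* was at 193 and 257 CPM (0.41, 0.13 to 0.71) and *Clk* at 188 and 145 (-0.37, -0.67 to -0.06).

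**Figure D5:**
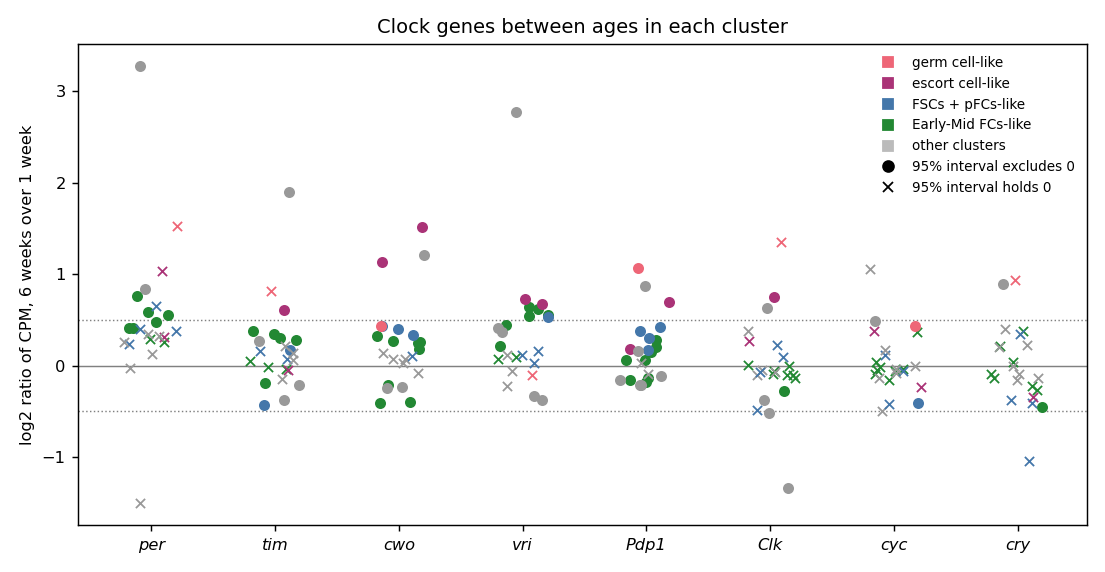
Log2 ratio of CPM (6 weeks over 1 week) of each clock gene in each of 23 clusters, 1 mark per cluster, coloured by class. Dots have a 95% counting interval that excludes 0 and crosses one that holds it, and dotted lines mark 0.5 in either direction. Points of *cyc* lie around 0, and the highest points of *per* and *vri* belong to the cluster led by *CG3168*.

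The genes most like each member over the 23 clusters and both libraries were listed by Pearson correlation of log2(CPM + 5), over 46 points. *per* was most like *Pdp1* (0.83), then *sei*, a potassium channel gene, and *Mrp4*. *tim* was most like *Unc-115a* (0.84) and *vri* (0.83), then *Eip93F*, an ecdysone-induced gene. *vri* was most like *Xrp1* (0.84), a stress-response bZIP gene, then *tim* and *Unc-115a*. Clock genes were therefore among the nearest neighbours of *per*, *tim*, *vri* and *Pdp1*. *Pdp1* was also near *tai*, which encodes a coactivator, and *PH4alphaEFB*.

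For the other members no clock gene of the 8 was among the nearest 3. *Clk* was most like *tai* (0.78), *CG31038* and *CG43693*, and *cyc* was most like *CG4511* (0.83), *CG8149* and *CG9588*. *cwo* was most like *sgg* (0.81), the fly GSK3 kinase gene, which acts on TIM, and then *Mrp4* and *Hex-A*, a hexokinase gene. *cry* had the weakest neighbours, *CG5001* (0.59), *CG18067* and *RhoGAP18B*.

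A list of 44 other genes of the clock, grouped by role, was compared between the ages. Of 41 with at least 30 UMIs, 1 was past 0.5 upward and 1 downward over all cells, where 6.52% and 11.5% of all genes were, and their median log2 ratio was 0.06. All 12 kinase and phosphatase genes lay between -0.13 and 0.22. The most abundant were *sgg*, at 404 and 453 CPM (0.17), and the protein phosphatase gene *Pp1-87B*, at 345 and 373 (0.11). The protein degradation genes *ctrip*, a ubiquitin ligase gene acting on CLK, and *CSN5*, of the COP9 signalosome, were at 0.05 and -0.05.

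The translation factors of the clock *tyf* and *Atx2*, which act together on *per* RNA, had 158 and 147 CPM (-0.11) and 116 and 117 CPM (0.01). Among the transcription factors, the nuclear receptor gene *Eip75B*, which acts on *Clk*, had 839 and 887 CPM (0.08), and *kay*, the fly Fos gene, had 354 and 453 (0.36). The temperature and light input genes *nocte* and *norpA* were at 0.01 and 0.03. These upstream genes were thus closer to level than *per* and *vri*.

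Among the output genes *Nf1* and *Pdfr*, the receptor gene of the clock neuropeptide PDF, were at 0.05 and 0.06. *Dh31*, which encodes a neuropeptide, had 267 UMIs at 1 week and 28 at 6 weeks (-3.57, -4.19 to -3.00), but 88.4% and 64.3% of these lay in 10 cells of each library. The 1 gene past 0.5 upward was *Pdf* itself, with 17 and 38 UMIs, an interval that held 0 (0.85, -0.01 to 1.76), and 58.8% and 28.9% of its UMIs in 10 cells of each library.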

How the data were processed

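Single-cell 3′ libraries of whole ovaries were made with 10x Genomics chemistry, 1 at 1 week and 1 at 6 weeks. The authors aligned and counted the reads with Cell Ranger 9.0.0 on build BDGP6, as the submitters' processing notes name them, and deposited UMI counts per gene and barcode, without normalization.

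Cells were kept from 500 genes, 1000 UMIs and at most 20% mitochondrial UMIs. 1-week cells were clustered on 2000 variable genes (30 principal components, 20 neighbours, leidenalg 0.10.2, resolution 1). Mitochondrially encoded genes, the 8 members, 44 other clock genes and genes on supplementary gene lists of the study were left out of the clustering. The 6-week cells were assigned by majority among their 30 closest 1-week neighbours. A class name needed 3 markers raised 2-fold in 10% of the cells, with 1 among the 10 leading genes while any further non-follicle class had to stay under 3 of them, so that the cluster led by *AstA*, which also had gut markers, was unnamed. No Early-Mid FCs-like cluster reached its name in this way. Each was named by having 3 of the class markers detected in 25% of the cells, up to 10 genes raised 8-fold, and a median depth of at least the library median divided by 3. These thresholds were adjusted after the clusters had been seen. Doublets were left in, and an alternative removed the highest doublet scores.

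UMIs were summed per class and library. CPM have exact Poisson intervals, and shares and log2 ratios have exact binomial intervals (scipy 1.17.1), checked on simulated counts. They cover counting error only. Levels of genes rest on 118721990 UMIs at 1 week and 147732187 at 6 weeks in the kept cells. The 8 members are all named. Of the other clock genes, those with at least 200 UMIs and a log2 ratio of 0.5 in either direction, and the 2 most abundant per role, are named, *Pdf* after its values were seen. The 3 genes most like each member had at least 1000 UMIs. Members and lists were chosen with earlier results of these data known. Positions are from the BDGP6.54 annotation.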

Additional observations from a re-analysis of the deposited data

Results flagged for a closer look

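Between cell classes, the ratio of 6 weeks over 1 week went in opposite directions for *Clk* and *cry*, by at least 0.5 on the log2 scale on each side and with counting intervals that excluded 0. With a ratio under 0.5 in size on at least 1 side, *tim*, *cyc*, *vri*, *Pdp1* and *cwo* also had intervals on opposite sides of 0 in some classes. *Clk* was higher at 6 weeks in Late FCs-like cells (log2 ratio 0.63) and escort cell-like cells (0.65), and lower in muscle-like cells (-1.34, on 27 and 19 UMIs). At 6 weeks *Clk* was seen in 2.24% of the thinned muscle-like cells and in 1.59% of 63 thinned germ cell-like cells. By CPM these classes were at 9.43 (5.67 to 14.7) and 2.30 (0.63 to 5.88). *cry* was higher at 6 weeks in muscle-like cells (0.89, on 16 and 53 UMIs) and lower in FSCs + pFCs-like cells (-0.77). Within the 4 clusters of the FSCs + pFCs-like class the ratio of *cry* was -1.04 to 0.35, and each interval held 0. In the thinned FSCs + pFCs-like cells *cry* was seen in 1.07% at 1 week and 1.05% at 6 weeks. These are too few cells to show whether its level differed. These differences between classes were not tested, since each age had 1 library. Only the clock genes were searched for opposite directions. Whether they had them more often than other genes was not tested. Over the alternatives, the *Clk* ratio in muscle-like cells ran from -1.67 to -0.65 and the *cry* ratio there from 0.18 to 1.99.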

How the results depend on the processing

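No paired analysis was possible because each age had 1 library. Over 10 alternatives for all cells, the log2 ratio of *per* ran from 0.499 to 0.68, that of *vri* from 0.34 to 0.47, that of *tim* from 0.10 to 0.24, that of *cwo* from 0.09 to 0.24 and that of *Pdp1* from 0.04 to 0.25. *Clk* (-0.08 to 0.14), *cyc* (-0.12 to 0.03) and *cry* (-0.15 to 0.09) changed sign. The count of members past a log2 ratio of 0.5 was 0 with the cluster shares of both libraries set to their mean, where *per* was at 0.499, and 0 at a threshold of 1. With genes of at least 200 UMIs, 3.79% of all genes were as far upward and 8.44% as far downward. The highest named class was the same for 5 of 8 members, with *Clk*, *Pdp1* and *cwo* as the exceptions, when mitochondrial UMIs were limited to 10% of a cell. The share of cells with a UMI of *cry* turned to a difference of -0.28 percentage points when cells were thinned to 2000 UMIs. Across the 7 alternatives for classes, 8 to 15 pairs of a clock gene and a class were past 0.5, against 12. Leaving out the cluster led by *CG3168* or the highest germ cell-like cell, and ratios relative to the class median, were chosen after seeing the data. With the lower cluster resolution the *Pdp1* ratio of FSCs + pFCs-like cells was 0.28. Depth limits *per*, *Clk* and *cry* in germ cell-like, muscle-like and Late FCs-like cells most, where 30 or fewer UMIs often stood behind a value.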
